A study of Mus musculus with 6 samples.

Results

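The genes described here sense, oxidize and conjugate foreign compounds, and were chosen by name as 8 genes: Ahr, Arnt, Cyp1b1, Tiparp, Por, Ephx1, Sult1a1 and Ugt1a7c. Of these, 7 were matched among the 11234 genes of the expression tables, and Sult1a1, a phenol sulfotransferase, was not matched and is not analysed here. The cells were MC3T3-E1, a preosteoblast line from the calvaria of C57BL/6 mice, at passage 4. The treated group received 100 μmol/L cyanidin-3-O-glucoside (C3G), an anthocyanin pigment of dark berries, for 24 h, and the control group received none. Each group had 3 RNA-seq libraries, with expression given as FPKM (fragments mapped to a transcript, scaled to its length and to the mapped fragments of the library). A single cell line and a single dose were used, and the labels do not say whether the 3 libraries of a group came from separate cultures, so p-values measure only the spread between these libraries, which may be technical.

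The aryl hydrocarbon receptor (AhR, encoded by Ahr) is a transcription factor held in the cytoplasm by chaperones until a planar aromatic ligand binds it. It then enters the nucleus, pairs with ARNT and binds DNA at sites built around the core GCGTG, where it raises the transcription of CYP1 oxidases, of TIPARP and of several conjugating enzymes. Plant polyphenols are handled by the same machinery: oxidases and hydrolases modify them, and glucuronosyltransferases, sulfotransferases, methyltransferases and glutathione transferases add groups that make them soluble and ready for export.

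Of the 7 members, 1 differed between the groups by the threshold used here, an unadjusted two-sided limma p under 0.05 with a fold change of at least 1.2. Over all genes 0.650% were called by that rule, 73 of 11234. The called member was Ugt1a7c, a UDP-glucuronosyltransferase that attaches glucuronic acid to phenols, which was higher with C3G. The receptor, its partner, its targets Cyp1b1 and Tiparp, and the enzymes Por and Ephx1 did not pass. With 3 libraries against 3, the exact two-sided permutation test cannot give a p under 0.1, so every call here rests on limma, which shares information on the spread across genes. No gene in the tables passed a Benjamini-Hochberg adjustment, where the smallest adjusted p by limma was 0.497, while 74 genes had an unadjusted p under 0.05. Ugt1a7c was also the member whose 3 C3G values did not overlap its 3 control values, a pattern shown by 4.02% of all genes, 452 in number. Because whole cultures were sequenced, a change in the number of cells that express a gene and a change in its RNA per cell cannot be told apart.

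The libraries differed in ways that touch these genes. Median FPKM was 5.80 in control replicate 1 and between 6.93 and 7.40 in the other libraries, and 71 genes were listed at 0 there, against 9 to 18 elsewhere. In both groups the departure of replicate 1 from replicates 2 and 3 followed the GC content of the transcript, with Spearman's rho of 0.748 in control and 0.631 in C3G across 11211 genes, which are not independent replicates. All 7 osteoblast lineage markers searched for (Col1a1, Col1a2, Runx2, Sp7, Sparc, Spp1 and Postn) were found in the tables, summing to 2471.4 to 7576 FPKM in control and 2505 to 3442 FPKM in C3G. Control replicate 1 stood apart among them, with Col1a1 at 4432 FPKM there against 923 to 1478 FPKM in the other libraries. By contrast, none of the hepatocyte, adipocyte or endothelial markers was matched. Of the macrophage markers only Cd68 was matched and of the muscle markers only Des, each under 2 FPKM in every library, and the epithelial markers Krt14 and Cdh1 summed to 79.9 to 149 FPKM in control and 72.6 to 104 FPKM in C3G, nearly all of it Krt14. None of the matched markers of any cell type was called.

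**Figure D1:**
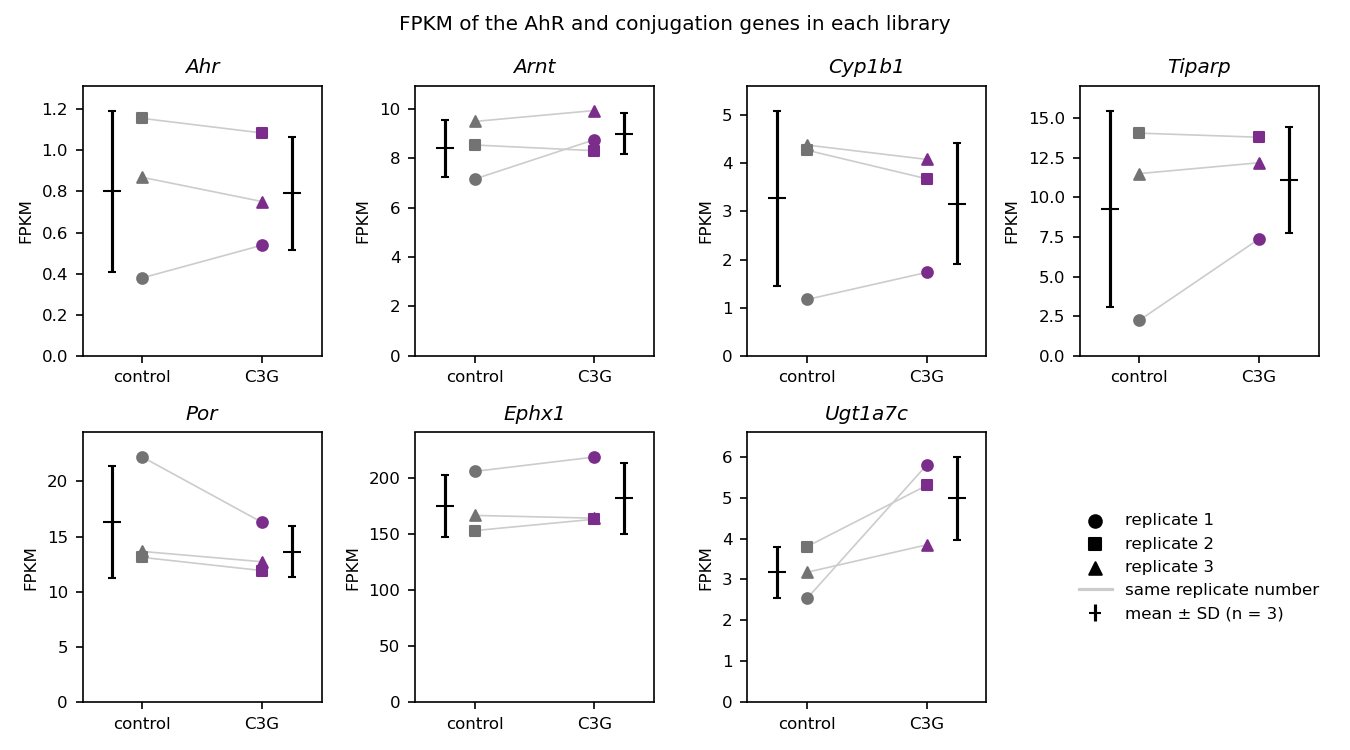
FPKM of the 7 matched genes (vertical axes, linear, each from 0) in the 3 control and 3 C3G libraries, with marker shape for the replicate number and grey lines joining equal numbers. Bars are mean ± SD (n = 3), and Ugt1a7c is the gene whose groups do not overlap, with control at 2.54 to 3.80 and C3G at 3.85 to 5.79.

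Ahr, the receptor itself (ENSMUSG00000019256.17, chr12:35497974-35535038, minus strand, GRCm38), was the lowest of the 7. It was listed at 0.380, 1.16 and 0.869 FPKM in control replicates 1, 2 and 3 and at 0.538, 1.08 and 0.751 FPKM in the C3G replicates. The groups overlapped fully, and replicate 1 was the lowest library of each. Mean FPKM was 0.801 ± 0.392 in control and 0.791 ± 0.275 with C3G (SD, n = 3). On the log2(FPKM + 1) scale, which understates changes of low genes, the difference of C3G from control was 0.0050 with a 95% interval of -0.48 to 0.49 (adjusted p = 1.00 by limma, exact permutation p = 1). A change within that interval was not excluded with this spread.

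Arnt, which encodes the obligate partner of the receptor (ENSMUSG00000015522.18, chr3:95434388-95497240, plus strand), was expressed at a higher level. Its FPKM was 7.16, 8.53 and 9.49 in control and 8.75, 8.30 and 9.93 in C3G. The ranges overlapped, with control replicate 1 the lowest. The log2 difference was 0.09, with an interval of -0.31 to 0.49 (adjusted p = 0.992 by limma, exact permutation p = 0.5), the narrowest among the 7 genes.

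Cyp1b1, an AhR target whose product oxidizes estrogens and polycyclic aromatic compounds (ENSMUSG00000024087.3, chr17:79701537-79715061, minus strand), was listed at 1.17, 4.27 and 4.38 FPKM in control and at 1.73, 3.68 and 4.08 FPKM in C3G. Replicate 1 was the low library in both groups, and apart from it the C3G values lay below the control values. The log2 difference of 0.03 had an interval of -0.96 to 1.02 (adjusted p = 0.997 by limma, exact permutation p = 1).

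Tiparp encodes a member of the poly(ADP-ribose) polymerase family that AhR induces and that in turn restrains the receptor (ENSMUSG00000034640.9, chr3:65528410-65555518, plus strand). On the log2 scale it had the widest spread of the 7, at 2.25, 14.1 and 11.5 FPKM in control and 7.38, 13.8 and 12.2 FPKM in C3G. Replicates 2 and 3 of both groups lay between 11.5 and 14.1, and replicate 1 lay below them in both, furthest in control. The log2 difference was 0.47 with an interval of -0.92 to 1.86 (adjusted p = 0.992 by limma, exact permutation p = 0.7). It came from replicate 1: between libraries of the same number the differences were 1.36, -0.03 and 0.08, and over replicates 2 and 3 alone the difference was 0.03.

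Por encodes the reductase that passes electrons to all microsomal cytochromes P450, CYP1B1 among them (ENSMUSG00000005514.14, chr5:135670033-135735326, plus strand). Its FPKM was 22.2, 13.1 and 13.7 in control and 16.3, 11.9 and 12.7 in C3G. Here replicate 1 was the high library of each group, and the ranges overlapped. The difference was -0.22, with an interval of -0.79 to 0.36 (adjusted p = 0.992 by limma, exact permutation p = 0.5), and between libraries of the same number the differences were -0.42, -0.13 and -0.09.

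Ephx1, the microsomal epoxide hydrolase that opens the reactive epoxides made by P450 enzymes (ENSMUSG00000038776.13, chr1:180976210-181020904, minus strand), was by far the most abundant of the 7. It stood at 206, 153 and 167 FPKM in control and at 219, 163 and 164 FPKM in C3G. Replicate 1 was again the high library of both groups. The log2 difference was 0.05 with an interval of -0.43 to 0.54 (adjusted p = 0.992 by limma, exact permutation p = 0.7).

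Ordered by mean FPKM over the 6 libraries, which is scaled to transcript length, the genes ran Ephx1 (179), Por (15.0), Tiparp (10.2), Arnt (8.69), Ugt1a7c (4.07), Cyp1b1 (3.22) and Ahr (0.796). The ranges of Por and Tiparp, of Tiparp and Arnt, and of Ugt1a7c and Cyp1b1 overlapped across the libraries, so the order within those pairs was not separated by their spread. Ephx1 and Por, Arnt and Ugt1a7c, and Cyp1b1 and Ahr did not overlap.

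**Figure D2:**
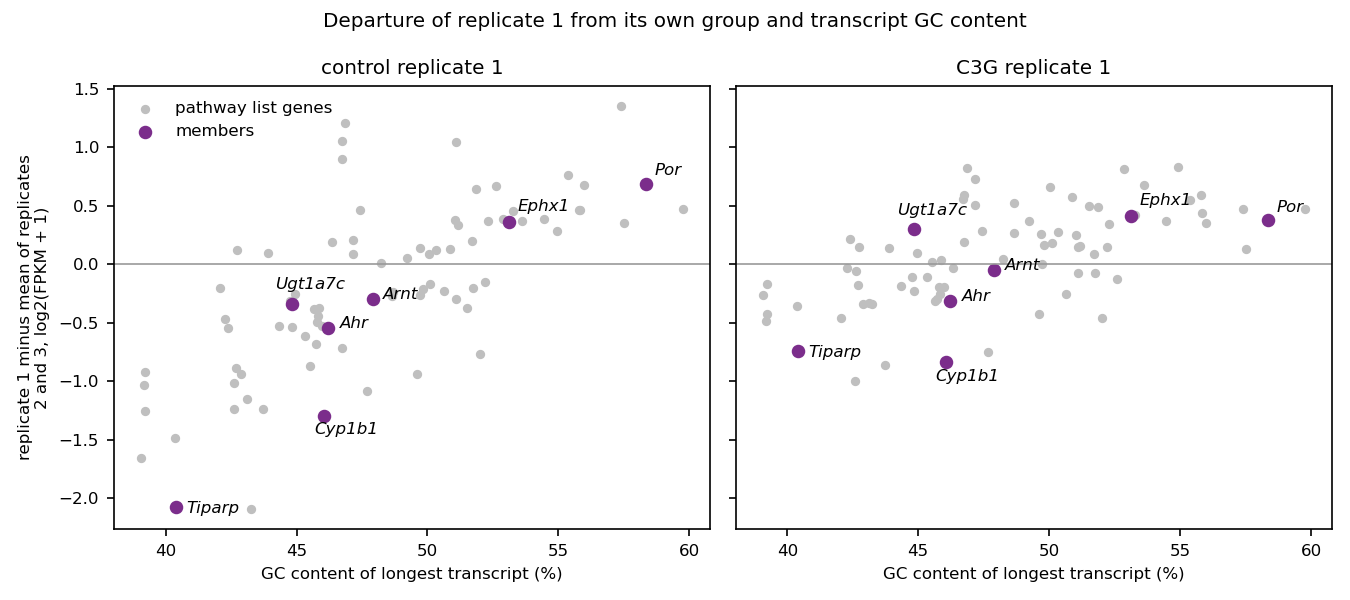
Log2(FPKM + 1) of replicate 1 minus the mean of replicates 2 and 3 (vertical axis) against the GC content of the longest transcript in percent (horizontal axis), in control (left) and C3G (right), with members in purple and genes of the pathway lists in grey. Tiparp, Cyp1b1 and Ahr lie below 0 in both panels and Por and Ephx1 above 0, and Ugt1a7c lies at -0.34 in control and 0.30 in C3G.

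The departures of replicate 1 were low in the members of low GC content and high in the GC-rich ones, except for Ugt1a7c in C3G, and are given here as a description. Tiparp, with a GC content of 40.4%, departed from replicates 2 and 3 by -2.08 on the log2 scale in control and by -0.74 in C3G. Cyp1b1, at 46.1% GC, had departures of -1.29 and -0.83, and Ahr, at 46.2%, of -0.54 and -0.31. Arnt, at 47.9%, had departures of -0.29 and -0.05. The GC-rich genes went the other way: Por, at 58.3%, had departures of 0.69 and 0.38, and Ephx1, at 53.1%, of 0.36 and 0.42. Por and Ephx1 changed places in C3G, as did Tiparp and Cyp1b1, so the order by GC content was not strict. Ugt1a7c, at 44.8% GC over its longest transcript, had departures of opposite sign in the 2 groups. In control its departure of -0.34 was smaller in size than those of Cyp1b1 and Ahr, which are of higher GC content. The part that base composition had in each difference was not tested beyond a fit corrected for GC content.

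Ugt1a7c (ENSMUSG00000090124.7, chr1:88095062-88220002, plus strand, GRCm38) is one of 9 annotated Ugt1a genes that share a single locus. Each has a first exon, which encodes the part of the enzyme that binds the substrate, spliced to the same 3 internal exons at chr1:88215044-88215175, chr1:88215795-88215882 and chr1:88216138-88216357. The first exon of Ugt1a6a is 954 bases long, but only 222 bases before the shared exons belong to Ugt1a6a alone. Part of that exon is thus also annotated to another Ugt1a gene, and first exons do not fully separate these genes. The first exon of Ugt1a7c lies at chr1:88095064-88095978 and is 915 bases long. Of its 4 annotated transcripts, 1 has no bases of that first exon, and it is the longest, at 3302 bases, so the FPKM of the gene can include a transcript without the private exon. Reads in the shared exons do not by themselves name the gene they came from, and 69.1% of the 75-base words of that longest transcript also occurred in other Ugt1a genes, so its FPKM and those of its neighbours are uncertain in how reads were split. Of its 4219 exonic bases, 1915 belonged to it alone, 917 of them before the shared exons and 998 after them.

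The junction of the first exon with the shared second exon is one place where these transcripts differ. Shown here for the 6 Ugt1a genes in the tables are 60 bases of each spliced transcript, from GRCm38 with GENCODE M21 exons, 5′ to 3′, with the last 30 bases of the first exon in lower case and the first 30 of the shared exon in capitals.
Ugt1a7c: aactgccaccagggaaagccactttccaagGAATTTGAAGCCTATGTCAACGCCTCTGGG
Ugt1a1: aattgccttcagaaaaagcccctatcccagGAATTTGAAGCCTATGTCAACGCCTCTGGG
Ugt1a2: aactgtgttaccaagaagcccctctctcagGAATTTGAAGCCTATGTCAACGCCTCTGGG
Ugt1a5: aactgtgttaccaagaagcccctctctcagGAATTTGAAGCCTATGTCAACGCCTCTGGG
Ugt1a6a: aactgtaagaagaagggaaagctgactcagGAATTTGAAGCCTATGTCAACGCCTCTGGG
Ugt1a6b: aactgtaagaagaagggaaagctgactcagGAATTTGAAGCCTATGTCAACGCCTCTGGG
The capitals are the same in all 6 genes. Ugt1a2 and Ugt1a5 have the same letters on both sides of the junction, as do Ugt1a6a and Ugt1a6b, so a read over the junction alone separates 4 sequences among the 6 genes.

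In control, Ugt1a7c was at 2.54, 3.80 and 3.18 FPKM in replicates 1, 2 and 3, and in C3G it was at 5.79, 5.29 and 3.85 FPKM. Every C3G library lay above every control library, narrowly so for C3G replicate 3 against control replicate 2. The means were 3.17 ± 0.632 and 4.98 ± 1.01 FPKM (SD, n = 3), a ratio of 1.57. On the log2(FPKM + 1) scale the difference was 0.51 (SE 0.203, interval 0.03 to 1.00), for which limma gave an unadjusted p of 0.0400 and an adjusted p of 0.992. Between libraries of the same number the differences were 0.94, 0.39 and 0.21, which the lack of overlap already requires to be above 0. The exact permutation test gave p = 0.1, the smallest it can give here and the value of any gene without overlap. The study had already singled out Ugt1a7c from these libraries, so its call here is not independent evidence. The study also reported a significant difference for Ugt1a7c by quantitative real-time PCR, without stating whether that RNA came from separate cultures. The call was lost without control replicate 1 (unadjusted limma p of 0.0587), control replicate 3 (0.0884), C3G replicate 1 (0.124) or C3G replicate 2 (0.117), and in a fit that corrected for GC content (difference 0.38, limma p of 0.107). With that correction and the replicate number as a block together, the difference was the same and the call was kept (limma p of 0.0157).

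Ugt1a5, which joins its own first exon to the same shared exons (ENSMUSG00000089943.1, chr1:88166012-88218997), was called in the opposite direction, lower with C3G. Its FPKM was 2.59, 0.693 and 0.761 in control and 0.472, 0.333 and 0.253 in C3G. The 3 C3G values lay below all control values, and control replicate 1 stood far above the rest. The log2 difference was -0.71 (SE 0.295), with an unadjusted limma p of 0.0485, an adjusted p of 0.992 and a permutation p of 0.1. The call was lost without any one of the C3G libraries (unadjusted limma p of 0.0814, 0.104 and 0.123 without replicate 1, 2 and 3). The difference was -0.36 without control replicate 1 and -1.46 with a pseudocount of 0.1. The tables hold genes with a group mean of at least 0.5 FPKM in at least 1 group, and Ugt1a5, with 0.353 FPKM in C3G, is in them through control alone, which favours a lower value with C3G, so its call is a description and supports nothing further.

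Ugt1a1, the bilirubin-conjugating member, was at 1.09, 0.811 and 1.12 FPKM in control and at 0.961 and 0.400 FPKM in C3G replicates 1 and 3, and was listed at 0 in C3G replicate 2. Its difference was -0.52 (exact permutation p = 0.2). Ugt1a2 was listed at 0 in control replicate 3 and in C3G replicates 2 and 3, with 1.55 and 0.877 FPKM in the other control libraries and 0.469 FPKM in C3G replicate 1, a difference of -0.57 (exact permutation p = 0.4). Both were low in every library, and neither passed the threshold. Their C3G means were also under 0.5 FPKM, so that they too are in the tables through control alone. Ugt1a1 was at -0.27 without C3G replicate 2, at -0.76 and called without C3G replicate 1 (limma p of 0.0093), and at -1.55 with a pseudocount of 0.1. Ugt1a2 was at -0.27 without control replicate 1, at -0.95 and called without control replicate 3 (limma p of 0.0079), and at -1.61 with a pseudocount of 0.1. With the replicate number as a block, a pairing taken from the sample titles, both passed along with Ugt1a5. The unadjusted limma p was 0.0332 for Ugt1a1, 0.0414 for Ugt1a2 and 0.0218 for Ugt1a5, and Ugt1a7c stayed called at 0.0394. The 3 lower calls are of genes that share most of their exons and that the tables hold only for their control level, so they are not separate results.

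Ugt1a6a and Ugt1a6b, whose products conjugate small planar phenols, were not called. Ugt1a6a was at 3.28, 2.87 and 3.15 FPKM in control and 3.17, 2.51 and 3.10 FPKM in C3G (difference -0.07, exact permutation p = 0.6). Ugt1a6b was at 1.87, 1.39 and 1.60 FPKM in control and 2.29, 1.48 and 1.14 FPKM in C3G (difference -0.0091, exact permutation p = 1). The groups overlapped for both genes.

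Summed over the 6 genes, the locus stood at 12.9, 10.4 and 9.81 FPKM in control and 13.1, 9.62 and 8.74 FPKM in C3G. Those sums overlapped, at 11.1 ± 1.64 against 10.5 ± 2.33 (SD, n = 3). The 5 genes other than Ugt1a7c added up to 10.4, 6.64 and 6.63 FPKM in control and 7.35, 4.32 and 4.89 FPKM in C3G. Ugt1a7c made up 19.7%, 36.4% and 32.4% of the sum in control and 44.1%, 55.0% and 44.0% in C3G, without overlap between the groups. Weighting each gene by its longest transcript, which for Ugt1a7c is the one without its own first exon, kept them apart, at 23.8%, 41.0% and 36.3% against 48.8%, 58.3% and 46.8%. These sums and shares include Ugt1a5, Ugt1a1 and Ugt1a2, which are in the tables through control alone, so their lower C3G sum and the higher Ugt1a7c share are descriptions that the filter favours. Over the 3 genes with a mean of at least 0.5 FPKM in both groups (Ugt1a6a, Ugt1a6b and Ugt1a7c), a choice made after seeing the data, the sums were 7.69, 8.06 and 7.92 FPKM in control and 11.2, 9.28 and 8.08 FPKM in C3G, nearly touching but without overlap. The Ugt1a7c share of that sum was 33.0%, 47.2% and 40.1% in control and 51.5%, 57.0% and 47.6% in C3G, again nearly touching. Ugt1a7c is part of every such sum and share, and Ugt1a6a and Ugt1a6b were not called. The higher sum and share of these 3 genes therefore restate the difference of Ugt1a7c and are no further check on it. How shared reads were divided among the genes was not tested.

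**Figure D3:**
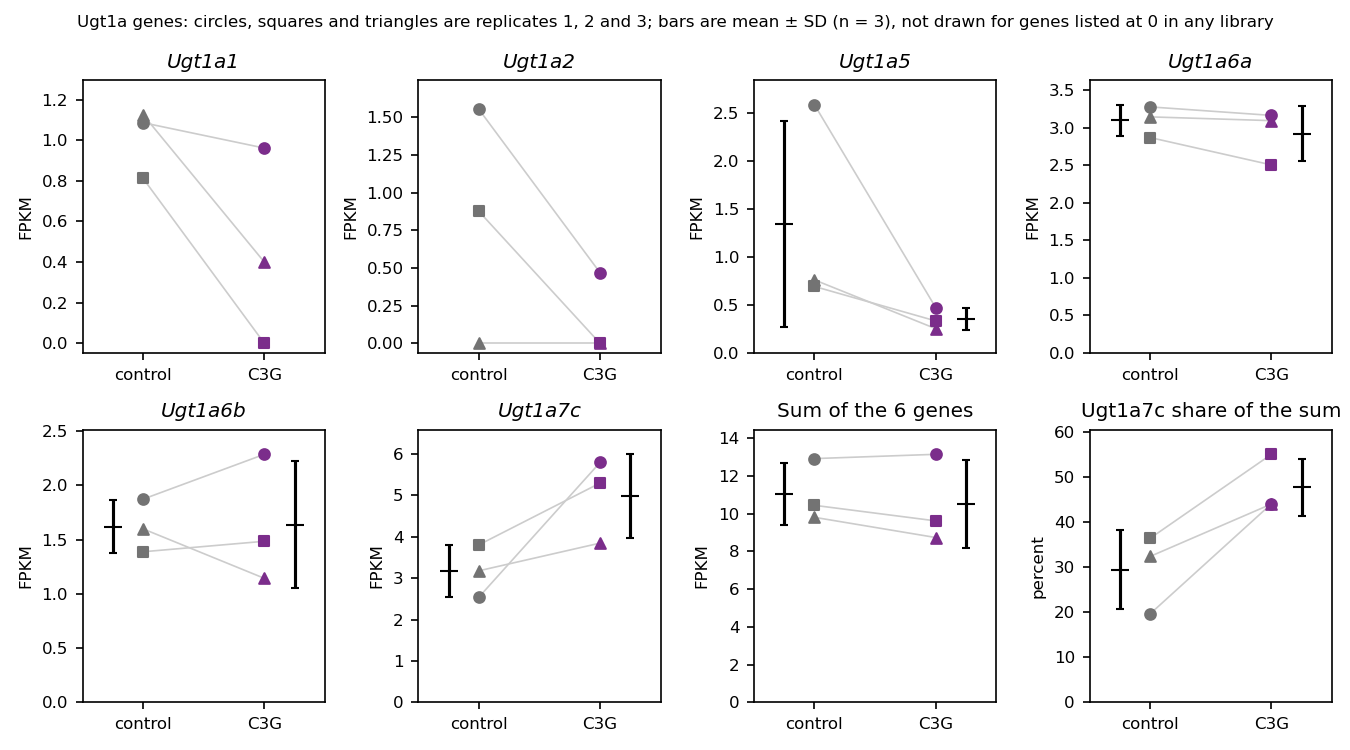
FPKM of the 6 Ugt1a genes, their sum, and the percent of the sum taken by Ugt1a7c, in each control and C3G library, with marker shape for the replicate number and bars for mean ± SD (n = 3), left out for Ugt1a1 and Ugt1a2, which are listed at 0 in some libraries. The Ugt1a7c share lies at 19.7% to 36.4% in control and 44.0% to 55.0% in C3G, while the sums overlap, and both include Ugt1a5, Ugt1a1 and Ugt1a2, which are in the tables through their control level alone.

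Promoters were searched for the AhR core, as GCGTG or its reverse complement CACGC, in the 250 bases before each start in the RefSeq table (GRCm38.p6), which held entries for 6 of the 7 matched genes and none for Ahr. Shown here are Cyp1b1 and Tiparp, as known AhR targets, and Ugt1a7c, as the called gene, 5′ to 3′ on the strand of the gene with the core in capitals. The windows are chr17:79715062-79715311 (minus strand) for Cyp1b1, chr3:65528197-65528446 (plus strand) for Tiparp and chr1:88094751-88095000 (plus strand) for Ugt1a7c.
Cyp1b1: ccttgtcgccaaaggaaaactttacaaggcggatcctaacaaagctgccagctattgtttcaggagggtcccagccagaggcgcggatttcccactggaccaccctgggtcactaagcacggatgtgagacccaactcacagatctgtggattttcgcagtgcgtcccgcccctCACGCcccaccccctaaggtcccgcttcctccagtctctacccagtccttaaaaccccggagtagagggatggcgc
Tiparp: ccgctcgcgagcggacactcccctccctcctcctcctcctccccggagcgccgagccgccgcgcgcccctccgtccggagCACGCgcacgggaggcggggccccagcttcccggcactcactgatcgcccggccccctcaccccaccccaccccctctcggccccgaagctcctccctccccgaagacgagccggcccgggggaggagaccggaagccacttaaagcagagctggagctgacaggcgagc
Ugt1a7c: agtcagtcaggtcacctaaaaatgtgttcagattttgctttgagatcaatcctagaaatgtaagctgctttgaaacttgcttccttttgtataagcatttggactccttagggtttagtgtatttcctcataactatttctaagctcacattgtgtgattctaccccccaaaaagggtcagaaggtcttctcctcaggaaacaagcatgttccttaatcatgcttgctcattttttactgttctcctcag
The core occurred once in Cyp1b1 (at -76), once in Tiparp (at -170) and once in Arnt (at -29), 3 times in Por, and not in these windows of Ugt1a7c and Ephx1. It is a common string: 28.2% of the 32851 promoters of the table held it, and 45.4% of the 11215 promoters of genes in the expression tables. A match is a description of the letters, not of binding.

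Of the 14 genes listed for the AhR pathway, members included, 12 were in the tables. None was called in either direction and none had groups that did not overlap, against 0.650% and 4.02% of all genes. At those shares, counts of 0 in a list this short say little about the pathway. The median log2 difference of the 12 was 0.06, and that of all genes was 0.06. The chaperone genes Hsp90ab1 and Hsp90aa1, whose proteins hold the receptor in the cytoplasm, had the highest mean FPKM of the list. Hsp90ab1 was at 818, 595 and 665 FPKM in control and 687, 568 and 587 FPKM in C3G (difference -0.17, exact permutation p = 0.4), and Hsp90aa1 at 84.0, 179 and 222 FPKM against 115, 212 and 208 FPKM (difference 0.20, exact permutation p = 0.7). The difference of Hsp90ab1 was -0.040 without control replicate 1 and -0.27 without control replicate 2. That of Hsp90aa1 turned to -0.21 without control replicate 1 and was 0.043 with the GC correction. For Hsp90aa1, 53.1% of the 75-base words of the transcript also occurred in other genes. Cyp1a1, the most AhR-responsive of the oxidases and named here after its values were seen, was at 0.461, 1.59 and 2.00 FPKM in control and 0.651, 1.16 and 1.26 FPKM in C3G. Its groups overlapped through the low value of control replicate 1, and the difference was -0.17 (exact permutation p = 0.6). With replicates 2 and 3 only it was -0.34 (unadjusted limma p of 0.0332), without control replicate 1 alone -0.48 (0.0264), and without control replicate 3 it turned to 0.044.

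Of the 32 genes listed for oxidation and hydrolysis, 21 were tested and none was called, against 0.650% of all genes, with a median of 0.06. In 2 of them the groups did not overlap, against 4.02% of all genes. Akr1b10, an aldo-keto reductase, was at 6.23, 7.35 and 7.36 FPKM in control and 8.86, 8.15 and 7.47 FPKM in C3G (difference 0.20, exact permutation p = 0.1). Cyb5r1, of the NADH-cytochrome b5 reductase family, was at 12.1, 7.15 and 7.37 FPKM in control and 6.36, 7.06 and 6.97 FPKM in C3G (difference -0.31, exact permutation p = 0.1). In both, the nearest values of the groups almost touched, and without control replicate 1 the difference of Cyb5r1 was -0.084. Akr1a1, a general aldehyde reductase and with Ephx1 the most abundant of the list, had a difference of -0.07.

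Of the 24 genes listed for glucuronidation, 11 were tested, with 1 called higher (Ugt1a7c) and 1 lower (Ugt1a5), against 0.650% called over all genes, and a median of 0.04. Both called genes use the shared exons of the locus, so their FPKM values are not independent. The enzymes that make the sugar donor were not called. Ugp2, which makes UDP-glucose, was at 18.3, 62.1 and 57.5 FPKM in control and 50.02, 63.7 and 57.1 FPKM in C3G (difference 0.48, exact permutation p = 0.7). Ugdh, which oxidizes UDP-glucose to UDP-glucuronic acid, was at 10.2, 21.3 and 19.5 FPKM in control and 14.9, 19.7 and 18.6 FPKM in C3G (difference 0.11, exact permutation p = 0.9). For both genes control replicate 1 was the lowest library and the groups overlapped. Without that library the difference was -0.075 for Ugp2 and -0.20 for Ugdh. That of Ugp2 was 0.014 with replicates 2 and 3 only and 0.22 with the GC correction.

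Sulfation was represented by 6 of 18 listed genes, none of them a sulfotransferase, and none was called, against 0.650% of all genes (median 0.09). The most abundant were Papss1, which makes the sulfate donor PAPS (difference 0.02), and Impad1, which clears the nucleotide left after sulfate transfer (difference 0.21). Of the 12 genes for methylation and acetylation, 8 were tested and none was called, against the same share (median 0.03). Mat2a, which makes the methyl donor S-adenosylmethionine, and Ahcy, which removes its by-product, had differences of 0.27 and -0.11, and 74.4% of the 75-base words of Ahcy also occurred in near-identical copies.

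Glutathione conjugation had 18 of 29 listed genes in the tables and efflux of conjugates 6 of 10. None was called on either list and no gene had groups that were apart, against 0.650% and 4.02% of all genes. The list medians were 0.07 and -0.02. Gstp1 and Gsto1, the most abundant glutathione transferases, had differences of 0.07 and 0.01, though 57.7% of the 75-base words of Gstp1 also occurred in its near-identical copies. The ABC transporters Abcc1 and Abcg2, which export conjugates, had differences of -0.15 and 0.29, and without control replicate 1 these were -0.034 and -0.13.

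**Figure D4:**
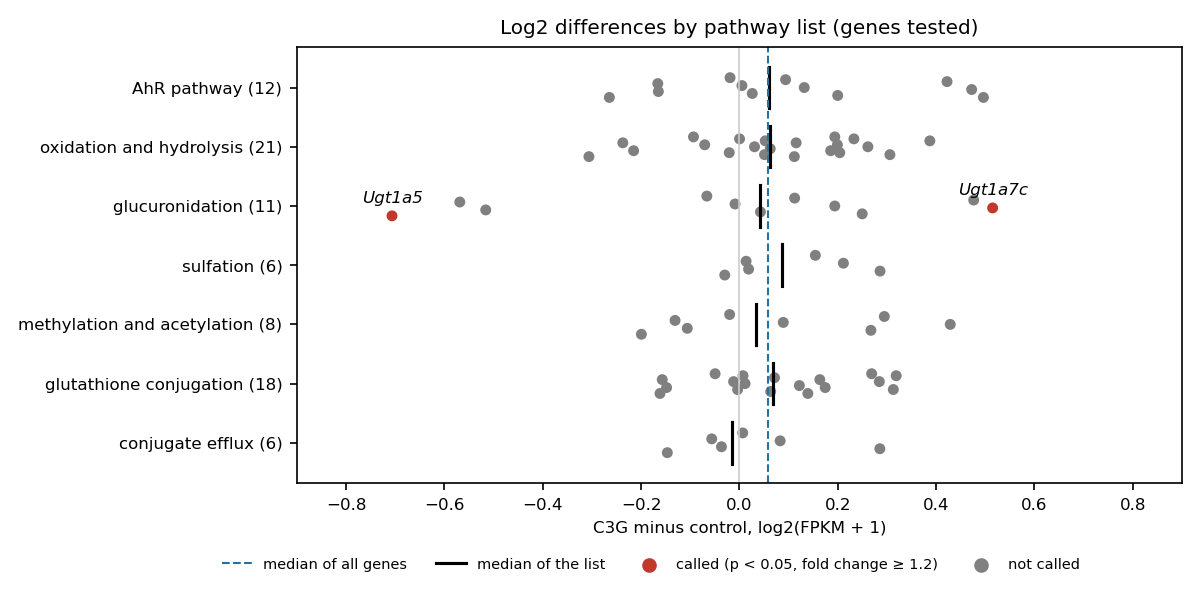
Log2(FPKM + 1) difference of C3G from control (horizontal axis) for each tested gene of the 7 pathway lists (rows, with the number tested), called genes in red, list medians as black bars and the median of all genes as a dashed line. Ugt1a7c at 0.51 and Ugt1a5 at -0.71 are the called genes, and the list medians lie between -0.02 and 0.09.

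Over all 7 lists, 82 of 139 genes were tested, with 1 called higher and 1 lower. Leaving out the members, 1 of 75 was called and in 3 of 75 the groups did not overlap, against 0.650% and 4.02% of all genes. Differences were above 0 for 53 genes and below 0 for 29, and over all genes for 6960 and 4274. With the replicate number as a block, 3 of the 75 were called, all lower (Ugt1a5, Ugt1a1 and Ugt1a2, which share exons and are in the tables through control alone), while the calls over all genes rose from 73 to 169.

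**Figure D5:**
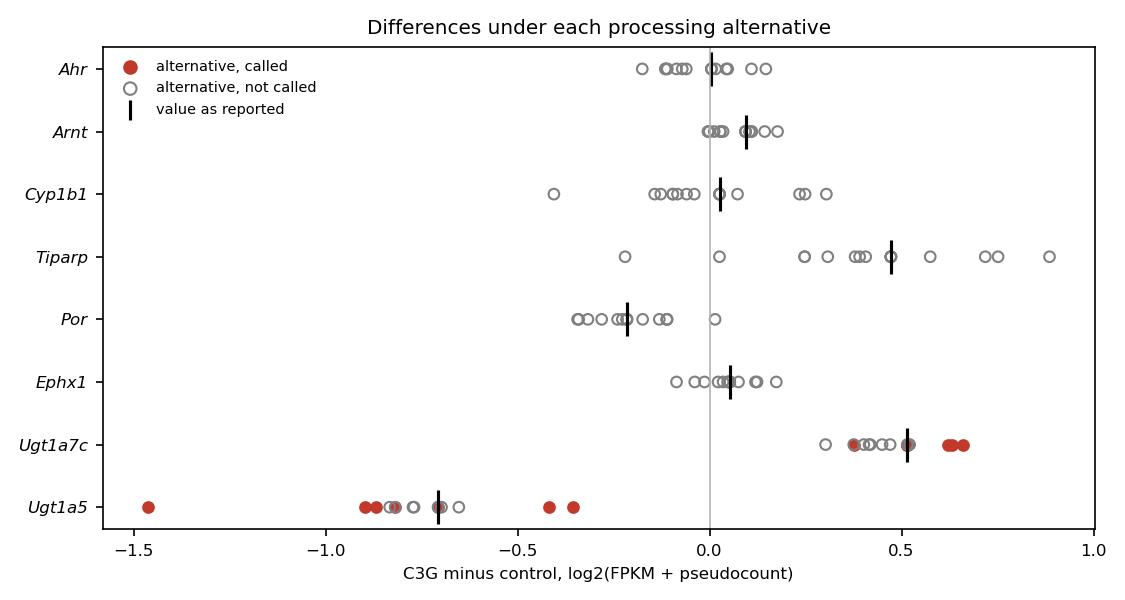
Log2 difference of C3G from control (horizontal axis) for the 7 members and Ugt1a5, with a black tick for the value as reported, red points for alternative settings in which the gene was called and open points for the others. Ugt1a7c stays above 0 in all 16 settings, from 0.30 to 0.66, while Ahr, Cyp1b1 and Tiparp have values on both sides of 0.

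Under the 16 alternative settings Ugt1a7c kept its direction, from 0.30 to 0.66, and passed the threshold in 7 of them, with limma or linear-model p from 0.0157 to 0.124. Among the other members, the values of Ahr, Cyp1b1, Arnt, Tiparp, Por and Ephx1 changed sign under at least 1 setting, and none of them passed the threshold under any setting run.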

How the data were processed

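Total RNA from MC3T3-E1 cells, 3 libraries per group, was sequenced after stranded library preparation. The deposited tables hold FPKM per gene, 1 per library, which the authors calculated with Ballgown. The submitters' processing notes name cutadapt, HISAT2 2.1.0, StringTie and STAR 2.5.2b without roles, and the build hg19, although the gene IDs are of mouse. Every gene had a group mean of at least 0.5 FPKM in at least 1 group. Fragment counts are not given in the sources used here, so the depth is unknown.

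All 11234 genes were fitted together as log2(FPKM + 1) with limma 3.58.1 (R 4.3.3, group only, all 6 libraries, eBayes with trend), with the p threshold of 0.05 and the fold change threshold of 1.2 that the study used, with Benjamini-Hochberg adjustment alongside. The script was tested on simulated data. Gene positions come from GENCODE M21 (GRCm38), whose versions match 9812 of the IDs, and symbols were matched for 11211. Promoters and starts come from RefSeq.

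The members and lists were chosen with earlier results of these data known. Named genes were the members and, of each list, the called genes, those whose groups did not overlap and the 2 with the highest mean FPKM. Cyp1a1 and the remaining Ugt1a genes were added once their values had been seen. The replicate numbers stand in the sample titles, and libraries of the same number deviated together from their group means (r of 0.653, 0.580 and 0.440, against -0.640 to 0.307 between different numbers), so a fit with the number as a block was run. Departures from a mean of 3 sum to 0, so a replicate 1 that stands apart in both groups by itself lowers its r with other numbers. Between numbers 2 and 3, r was 0.307 and 0.300. These correlations therefore cannot show that the libraries were paired. Other alternatives were a pseudocount of 0.1, a mean FPKM of at least 1, eBayes without trend, quantile normalization, a GC correction, centring on the median, an ordinary linear model, replicates 2 and 3 only, and leaving out each library.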

Additional observations from a re-analysis of the deposited data

How the results depend on the processing

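Where the reported fit called 73 genes (45 higher, 28 lower), an ordinary linear model called 48, the replicate block 169 (100 higher, 69 lower), the GC correction 135 (67 and 68), both together 246 (119 and 127), replicates 2 and 3 only 191 (88 and 103), and leaving out 1 library 40 to 144 (40 without C3G replicate 2, 43 without C3G replicate 3, 45 without C3G replicate 1, 127 without control replicate 2, 144 without control replicate 1). Quantile normalization split the calls 30 and 30. The median over all genes lay between -0.01 and 0.09 in every setting.

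The 1 member called, Ugt1a7c, became 0 under the ordinary linear model (p of 0.0575), quantile normalization (0.42, limma p of 0.0699), median centring (0.45, limma p of 0.0522), the GC correction and replicates 2 and 3 only (0.30, limma p of 0.114), and 0 to 1 when 1 library was left out, with differences of 0.40 to 0.66. The replicate block kept it. The 1 other pathway gene called, Ugt1a5, became 0 with a mean FPKM of at least 1, without trend, and under the ordinary linear model, median centring, quantile normalization and the GC correction. The count became 3 with the replicate block, alone or with the GC correction, 3 with replicates 2 and 3 only (Cyp1a1, Ugt1a5 and Ugt1a1), and 0 to 3 when 1 library was left out (0 without C3G replicate 2 or 3, 2 without control replicate 1, 3 without control replicate 3, which were Ugt1a5, Ugt1a2 and Slc35d2, the last named after its values were seen). The causes were not tested.

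Differences that were not called changed sign as follows. With the GC correction Ahr became -0.11, Arnt -0.0011, Cyp1b1 -0.096, Gsto1 -0.022, Impad1 -0.043, Papss1 -0.046 and Ugdh -0.059, and adding the replicate block left these values as they were. Without a change of sign, that correction moved Abcg2 to 0.032, Mat2a to 0.10, Tiparp to 0.25, Ugp2 to 0.22, Por to -0.11 and Akr1a1 to -0.17, among others. With median centring Ahr became -0.061, Cyp1b1 -0.040, Ephx1 -0.013, Gsto1 -0.058 and Papss1 -0.047. With quantile normalization Ahr became -0.086 and Cyp1b1 -0.060. With replicates 2 and 3 only, Ahr became -0.071, Cyp1b1 -0.13, Mat2a -0.0045, Papss1 -0.020 and Ugdh -0.085.

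Leaving out 1 library moved Abcg2 from -0.13 to 0.54, Ahcy from -0.27 to 0.11, Ahr from -0.18 to 0.15, Akr1a1 from -0.17 to 0.084, Arnt from -0.0042 to 0.18, Cyp1a1 from -0.48 to 0.044, Cyp1b1 from -0.41 to 0.30, Ephx1 from -0.086 to 0.17, Gsto1 from -0.067 to 0.11, Gstp1 from -0.13 to 0.23, Hsp90aa1 from -0.21 to 0.49, Impad1 from -0.13 to 0.38, Mat2a from -0.12 to 0.50, Papss1 from -0.067 to 0.074, Por from -0.34 to 0.014, Tiparp from -0.22 (without control replicate 1) to 0.89, Ugdh from -0.20 to 0.30, Ugp2 from -0.075 to 0.78, Ugt1a6a from -0.11 to 0.013 and Ugt1a6b from -0.18 to 0.13. Without a change of sign, Cyb5r1 moved from -0.43 to -0.084, Hsp90ab1 from -0.27 to -0.040 and Abcc1 from -0.22 to -0.034, each smallest without control replicate 1, and Akr1b10 from 0.13 to 0.25. Of 444 values of the 28 named genes, 362 kept their direction and their side of the threshold, 17 lost the call, 9 gained it and 56 changed sign. A gene under 1 FPKM, such as Ahr, was measured with little signal, and its depth in fragments is unknown.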

Other observations

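The genes whose pattern over the 6 libraries was most like that of Ahr were Heatr1 (Pearson's r of 0.997 on the log2(FPKM + 1) scale) and Tent4b (0.994), among 10464 genes of mean FPKM of at least 1. Ahr was lowest in replicate 1 of both groups, as were many genes, and 900 genes had r above 0.9 with it. The genes most like Ugt1a7c were Gorasp2, at 16.5, 19.0 and 18.2 FPKM in control and 22.5, 22.4 and 19.0 FPKM in C3G, with r of 0.993, and Spg21, with r of 0.989. For Ugt1a7c 114 of 10463 genes had r above 0.9. These are descriptions over 6 libraries, with no test. Genes of a library can share that library's departures, such as those that followed GC content, and the depth is unknown.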
